A study of Mus musculus with 10 samples.

Results

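Ces1d and Pla2g5, 2 genes of lipid-cleaving enzymes, were examined in RNA of the left ventricle (LV) from 5 nAAC mice and 5 sham mice, out of 55401 genes in the deposited tables. They were chosen because both were among the largest decreases in nAAC hearts, selected on the same FPKM values of these mice. Their difference between nAAC and sham mice is therefore described without a test. The nAAC mice had the ascending aorta constricted surgically as newborns, within a day of birth, which loads the LV with pressure throughout its growth, and the sham mice had the operation without the constriction. All 10 mice were labelled wild type (WT; C57BL/6 background per the study's methods), were nursed by their mothers and were studied at 4 weeks of age, with 1 library per mouse and female and male mice placed in the groups at random. Levels are given in FPKM, fragments scaled to transcript length and to library depth, so that levels of different genes can be compared. LV tissue holds many cell types, so fewer cells of a type and less RNA per cell cannot be told apart.

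Ces1d encodes a carboxylesterase of the endoplasmic reticulum, best known from liver and adipose tissue, where it hydrolyses stored triacylglycerol and other esters and so feeds fatty acids into secretion or export. Pla2g5 encodes a secreted, calcium-dependent phospholipase A2 that cuts a fatty acid, often arachidonic acid, from the middle position of membrane phospholipids and leaves a lysophospholipid, and the heart is known as a site of its expression. Free arachidonic acid is the substrate of prostaglandin and leukotriene synthesis, and the heart also draws fatty acids from stored triacylglycerol and from lipoproteins for oxidation.

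Ces1d (ENSMUSG00000056973) lies on the minus strand of chromosome 8 of GRCm38, from 93166068 to 93197838, in a row of related carboxylesterase genes. Its coding transcript in GENCODE M21 has 14 exons and 2004 bases, of which 1695 are coding. Pla2g5 (ENSMUSG00000041193) lies on the minus strand of chromosome 4, from 138799244 to 138863482, among other secreted phospholipase genes, and 9 transcripts are annotated for it. Both genes have relatives from which reads could be assigned wrongly, so their transcripts were searched for stretches shared with other genes. None of the 1930 stretches of 75 bases in this transcript, and none of the 1902 in the 1976-base Pla2g5 transcript compared, occurred in a transcript of another gene. At 50 bases, 25 of the 1955 stretches of Ces1d, or 1.28%, were shared with 3 other genes, and none of those of Pla2g5. The longest run that the coding part of Ces1d shared with another carboxylesterase was 66 bases, from base 1098 to base 1163 of the transcript, identical in Ces1b. It is shown because reads lying wholly within it cannot be assigned to either gene by sequence, and Ces1b was listed at 0 in all 10 libraries.
Ces1d and Ces1b shared run: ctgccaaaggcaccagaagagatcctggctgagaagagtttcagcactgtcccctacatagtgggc
For Pla2g5 the longest coding run shared with another secreted phospholipase, Pla2g1b, was 16 bases.

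Pla2g5 has 2 transcription starts in RefSeq (GRCm38.p6), a distal one at the far end of the gene and a proximal one close to the start of the transcript compared above, and the 250 bases before each are shown to place the letters of cardiac and AHR motifs near the gene. AHR, the aryl hydrocarbon receptor, is the factor the study follows. Read 5′ to 3′ on the strand of the gene, capitals mark matches, on either strand, to GATAA (the core of GATA factor sites) and CATTCC (that of TEAD sites).
Pla2g5 distal start, chr4:138863470-138863719, minus strand: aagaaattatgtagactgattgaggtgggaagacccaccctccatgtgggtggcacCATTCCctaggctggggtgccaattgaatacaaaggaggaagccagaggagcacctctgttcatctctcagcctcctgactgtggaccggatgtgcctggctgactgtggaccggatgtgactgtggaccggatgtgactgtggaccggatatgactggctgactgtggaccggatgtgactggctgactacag
Pla2g5 proximal start, chr4:138819258-138819507, minus strand: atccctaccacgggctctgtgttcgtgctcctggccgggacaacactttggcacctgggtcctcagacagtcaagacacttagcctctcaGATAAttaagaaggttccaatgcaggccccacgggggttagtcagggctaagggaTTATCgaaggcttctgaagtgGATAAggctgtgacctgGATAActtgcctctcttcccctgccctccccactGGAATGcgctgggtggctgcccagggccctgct
The proximal window held 4 matches to GATAA, which begin 160, 105, 84 and 67 bases before the start. At least 1 match was present in 22.6% of the 32851 windows of this length in RefSeq, and at least as many in 0.119%. Each Pla2g5 window held 1 match to CATTCC, which occurred in 12.6% of all windows, and these matches did not overlap those of GATAA. The AHR core GCGTG, present in 28.2% of all windows, was found in neither window, nor was TATAAA (the TATA box, in 12.4%). AGGTCA, a core of nuclear receptor sites and present in 14% of all windows, was matched 1 time in the proximal window only. CANNTG, the E-box present in 66.2% of all windows, had 2 matches in the distal and 1 in the proximal window. A loose SRF motif, CC and GG with any 6 bases between them, had 1 match in the distal and 5 in the proximal window, against at least 1 in 67.1% and at least 5 in 6.02% of all windows. A MEF2 motif, CTA and TAG with any 4 bases between them, was in neither window and in 3.2% of all windows. Overlaps of the nuclear receptor, E-box and SRF motifs with other motifs were not examined. These are matches of letters in short windows and describe no binding. No promoter of Ces1d was shown.

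In sham mice Ces1d stood at 30.9, 28.7, 28.5, 39.2 and 38.8 FPKM in replicates 1 to 5, a mean of 33.2 ± 5.34 (SD, n = 5). In nAAC mice its FPKM was 0.414, 2.44, 1.68, 2.81 and 3.92 in replicates 1 to 5, a mean of 2.25 ± 1.31 (SD, n = 5). All nAAC mice lay below all sham mice, and the lowest sham value was 7.28 times the highest nAAC value. The mean FPKM was 14.7-fold lower in nAAC mice, and the difference in log2(FPKM + 1), nAAC minus sham, was -3.50 (standard error 0.27 from limma). Replicate 1 was the lowest of the nAAC mice, and without it the difference in log2(FPKM + 1) was -3.23. The sham values were close to each other, with a highest value 1.37 times the lowest, while the nAAC values spread 9.48-fold.

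The depth behind these levels differed widely. Reads covered each base of Ces1d 125 to 168 times on average in sham libraries and 2.19 to 16.9 times in nAAC libraries, with the lowest coverage in nAAC replicate 1. This was the deepest of the 10 libraries, as far as depth can be estimated. Ranked by FPKM within each library, among the 11867 genes tested (mean FPKM 1 or higher), Ces1d was between rank 1089 and rank 1173 in every sham mouse. In nAAC mice it was between rank 7930 and rank 11818. It was thus among the more abundant genes tested in sham mice and among the less abundant ones in nAAC mice. These ranks restate the values by which Ces1d was chosen, among genes filtered on their mean over both groups.

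Pla2g5 was less abundant. Its FPKM in sham mice was 10.8, 9.88, 7.89, 12.5 and 12.2 in replicates 1 to 5, a mean of 10.7 ± 1.89 (SD, n = 5). In nAAC mice it was 0.426, 1.33, 0.404, 1.22 and 1.31 FPKM, a mean of 0.938 ± 0.480 (SD, n = 5). Again no nAAC value reached the sham values, the lowest of which was 5.93 times the highest in nAAC mice. Replicates 1 and 3 formed a low pair among the nAAC mice, below the other 3. The mean FPKM was 11.4-fold lower in nAAC mice, and the difference in log2(FPKM + 1) was -2.61 (standard error 0.18 from limma). Mean coverage per base was 11.4 to 17.9 reads in sham libraries but only 0.599 to 1.97 in nAAC libraries, so single nAAC levels of Pla2g5 rest on few reads and the log scale with its added 1 understates the fold. With 0.1 added in place of 1, the differences were -3.51 for Pla2g5 and -4.09 for Ces1d. By FPKM, Pla2g5 held ranks 3102 to 4015 of 11867 in sham mice and 11098 to 11833 in nAAC mice. Its nAAC mean of 0.938 FPKM is below the limit of 1, so it passed the filter through its sham levels. Its low ranks in nAAC mice thus follow largely from the filter and from the choice of the gene.

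**Figure D1:**
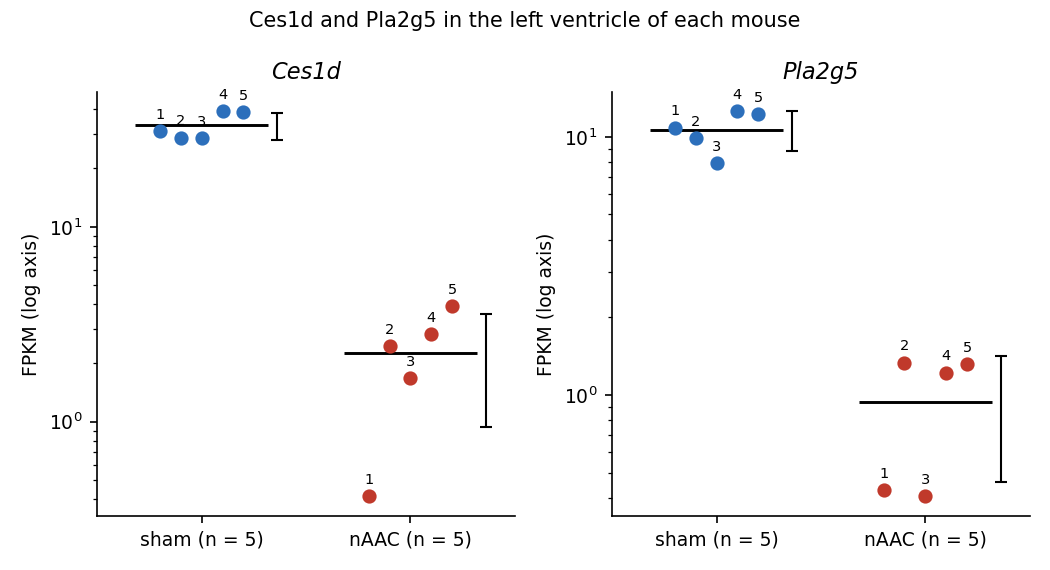
FPKM of Ces1d (left) and Pla2g5 (right) on a log axis, 1 point per mouse with its replicate number, in 5 sham and 5 nAAC mice; horizontal lines are group means and the bars beside them the mean ± SD. All sham points lie above all nAAC points for both genes, and Ces1d in nAAC replicate 1, at 0.414, is the farthest from its group.

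The genes were picked for the size of these differences, which may therefore be overstated. Among the 11867 genes tested, ordered by the difference in log2(FPKM + 1), Ces1d was the first decrease and Pla2g5 the sixth, between Gm19277 at -2.75 and Aqp4 at -2.47. Of all genes tested, 31.7% had a limma adjusted p below 0.05 in either direction, and 0.893% had one with a log2 fold change (FC) below -1. Every nAAC mouse lay below every sham mouse in 3.46% of them, and above every sham mouse in 18.9%. The median difference of all genes was 0.22, so that Ces1d stood 3.72 and Pla2g5 2.84 below the typical gene on the log2 scale. In libraries scaled by the median ratio to a common reference, which brought the median of all genes to -0.0022, the differences were -3.73 and -2.81.

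Within each group the 2 genes also varied together. After each group's mean was subtracted, Pearson's r between the log2(FPKM + 1) of Ces1d and Pla2g5 over the 10 mice was 0.80, and it stayed between 0.78 and 0.87 with any 1 mouse left out. In sham mice replicates 4 and 5 were highest for both genes and replicate 3 lowest, and in nAAC mice replicates 1 and 3 were lowest for both. This is a description over 10 libraries, in which both genes share each library's scaling. Pla2g5 was not the gene closest to Ces1d, because 89 of the 8373 genes with a mean log2(FPKM + 1) of at least 2 followed Ces1d more closely, Pla2g5 being number 90. The ratio of Ces1d to Pla2g5 in FPKM ran from 2.84 to 3.62 in sham mice and from 0.971 to 4.15 in nAAC mice, so the ranges overlapped. This ratio depends on the measure. By mean coverage per base the genes were farther apart in sham libraries, at 125 to 168 for Ces1d and 11.4 to 17.9 for Pla2g5. The cause of this disagreement was not tested.

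**Figure D2:**
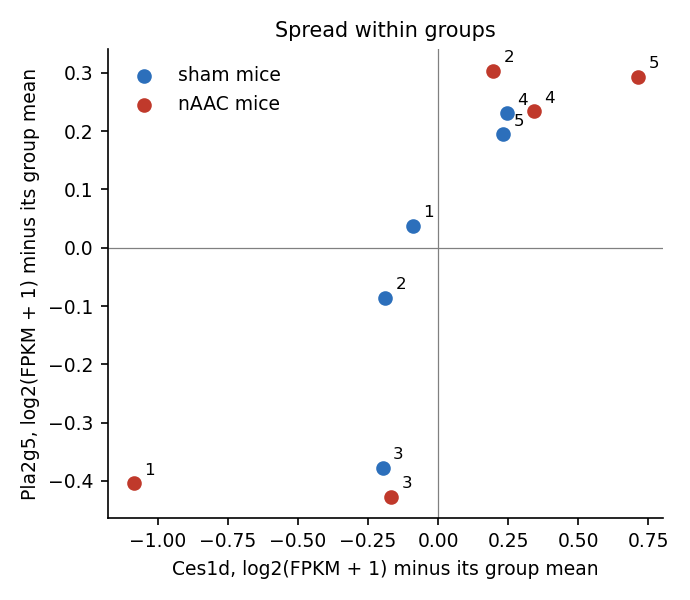
Deviation of Pla2g5 from its group mean against that of Ces1d, both in log2(FPKM + 1), 1 point per mouse with its replicate number (5 sham, 5 nAAC). The points run from low for both genes (nAAC replicates 1 and 3, sham replicate 3) to high for both (sham replicates 4 and 5, nAAC replicates 2, 4 and 5), with r = 0.80.

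The genes that followed Ces1d most closely within groups were Slc31a2, Crcp, Poglut2, Fv1 and 2310061I04Rik, with r from 0.92 to 0.95 over the 10 mice. Those closest to Pla2g5 were Asb5, Mapk14, Dnaja3, 1600014C10Rik and Tmem181b-ps, with r from 0.90 to 0.93. They are the top of 8373 genes ranked on 10 libraries, so high values of r arise by the ranking itself. For Ces1d, leaving out 1 mouse lowered r to 0.71 to 0.84 at the least. Of the 10, 2 differed between groups with a limma adjusted p below 0.05, beside 31.7% of all genes tested. Asb5, which encodes an ankyrin repeat and SOCS box protein of muscle, fell from 15.8 ± 1.99 FPKM in sham mice to 7.61 ± 1.5 in nAAC mice (SD, n = 5 each), with all nAAC mice lower (log2 FC -0.97 ± 0.14 SE, adjusted p = 0.000211 by limma). Fv1, a retroviral restriction gene, rose by 0.56 ± 0.14 (log2 FC and SE, adjusted p = 0.00864 by limma). Its adjusted p was above 0.05 in several alternatives, median-ratio scaling among them.

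Mice with and without transcripts of the Y-linked gene Ddx3y were present in both groups in unequal numbers. Ddx3y was detected in nAAC replicate 2 and in sham replicates 1, 2 and 3, from 10.4 to 16.3 FPKM, and listed at 0 in the other 6 libraries, and Xist, transcribed from the inactive X chromosome, was at most 0.0232 FPKM in those 4 and between 3.70 and 17.9 in the other 6. No sex was assigned to a mouse. Among mice with Ddx3y, Ces1d was 2.44 FPKM in the nAAC mouse and 28.5 to 30.9 in the sham mice, and Pla2g5 was 1.33 and 7.89 to 10.8. Among mice without it, Ces1d was 0.414 to 3.92 in nAAC mice and 38.8 and 39.2 in sham mice, and Pla2g5 was 0.404 to 1.31 and 12.2 and 12.5. In sham mice both genes were thus higher in the pair without Ddx3y than in the 3 with it, while in nAAC mice the single mouse with it was not apart from the rest. With Xist as a covariate the difference in log2(FPKM + 1) was -3.55 for Ces1d and -2.61 for Pla2g5.

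A few facts of the whole series bear on the values. Estimated depth was between 4858 and 6822 megabases of aligned sequence per library. Sham replicate 4 was the library most unlike the others of its group, with an SD of log2 differences across genes of 0.437 to 0.640 to the other sham libraries, against 0.245 to 0.442 among these. Without it the differences of Ces1d and Pla2g5 were -3.44 and -2.55. All 12 cardiomyocyte markers listed were tested, and 2 rose and 2 fell, with a summed FPKM of 16715 to 25668 in nAAC and 18586 to 34778 in sham mice. Fibroblast markers rose in 7 of 8 (summed FPKM 603 to 1108 against 374 to 406), mural markers in 5 of 8 (292 to 424 against 200 to 332), macrophage markers in 3 of 9 (165 to 328 against 108 to 230, over all 10 listed) and endothelial markers in 2 of 8 (165 to 296 against 158 to 241), with none of these lists holding a gene that fell. Of all genes tested, 27.1% rose and 4.6% fell at this threshold. The part of these cell types in the levels of Ces1d and Pla2g5 was not tested.

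Because Ces1d is a gene of adipocytes and liver, markers of these cells were examined beside it. No hepatocyte marker of the 8 listed reached the mean FPKM needed for testing, and their summed FPKM was 0.769 to 2.06 in nAAC mice and 0.376 to 4.08 in sham mice. Of 12 adipocyte markers 4 were tested, and only Lpl fell. The 4 are also expressed by heart muscle or its vessels, and the list's sum, 835 to 1088 FPKM in nAAC mice and 1137 to 1506 in sham mice, is made up mostly of them. The other 8, a division made after their values were seen, are Adipoq, Plin1, Cidec, Lep, Retn, Cfd, Pck1 and Ucp1. They summed to between 0 and 0.728 FPKM in nAAC mice and between 0.189 and 3.48 in sham mice, so they were low in both groups, and 4 of the 5 nAAC mice lay below all sham mice. Their part in the level of Ces1d was not tested. Adipoq, the adiponectin gene, was listed at 0 in all nAAC mice and at 0.0786 to 0.308 FPKM in sham mice. Among sham mice the order by the sum of these 8 and the order by Ces1d matched only in part. Replicate 3 had both the lowest sum, 0.189, and the lowest Ces1d, 28.5 FPKM, and replicate 5, with the highest sum of 3.48, had a Ces1d of 38.8 FPKM. Replicate 4 had the highest Ces1d, 39.2 FPKM, but a lower sum than replicate 1, whose Ces1d was 30.9 FPKM.

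Among 19 carboxylesterases, Ces1d was the only one abundant in the LV of sham mice. In nAAC replicate 1, Ces2e at 1.20 FPKM and Ces2g at 0.927 FPKM were above Ces1d. Of the other 18, 16 were below 1 FPKM in every mouse and 9 were listed at 0 in every mouse, and none reached the mean FPKM of 1 required for testing. Ces1d made up 96.0% to 97.7% of the summed FPKM of the family in sham mice, with a median of 96.3%, and 14.2% to 55.2% in nAAC mice, with a median of 43.5%. The sum of the other 18 was 0.906 to 1.37 FPKM in sham mice and 2.11 to 3.65 in nAAC mice. Part of this came from Ces2e, a carboxylesterase of the Ces2 group, which was named after its values were seen. Its FPKM was 0.121 to 0.319 in sham mice and 0.843 to 2.0 in nAAC mice, with no overlap between the groups. Of the genes tested, which did not include Ces2e, 18.9% had every nAAC mouse above every sham mouse. In a fit without the filter on low values, where 11.6% of 29309 genes rose and 2.13% fell, Ces2e rose (log2 FC 0.93 ± 0.14 SE, adjusted p = 0.00179 by limma). In that fit Ces5a also rose, listed at 0 in all sham mice and at 0.221 to 0.479 FPKM in nAAC mice (adjusted p = 0.000261), and so did Ces1a, at 0 in sham mice and at most 0.117 FPKM in nAAC mice (adjusted p = 0.0352). Ces2g, at 0.763 ± 0.169 FPKM in sham mice and 0.851 ± 0.222 in nAAC mice (SD, n = 5 each), differed by 0.07 on the log2 scale with an adjusted p of 0.71. With all sham mice at 0, Ces5a and Ces1a could only be called higher in that fit, so their direction is no result. The levels of all 3 relatives called there were far below that of Ces1d in sham mice.

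Among the 11 genes listed as secreted phospholipases A2, which leave out Pla2g7, Pla2g5 and Pla2g12a were the only ones above 0.25 FPKM in any mouse. Pla2g12a, an atypical member of the family, was at 20.9 ± 8.02 FPKM in sham mice and 25.5 ± 3.19 in nAAC mice (SD, n = 5 each). The groups overlapped, since sham replicates 4 and 5 held 33.3 and 24.7 FPKM while the remaining sham mice had 14.4 to 16.2, and the difference did not pass (log2 FC 0.34 ± 0.20 SE, adjusted p = 0.217 by limma). Without sham replicate 4 the difference was 0.52, with a limma adjusted p of 0.0194. It was 0.073 after median-ratio scaling, 0.087 after upper-quartile scaling and 0.098 with Xist as a covariate, against 0.51 with TPM. It passed in none of these settings. The main value of 0.34 stands beside a median of 0.22 over all genes. Pla2g5 was 27.1% to 40.1% of the summed FPKM of these 11 genes in sham mice and 1.27% to 5.02% in nAAC mice.

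**Figure D3:**
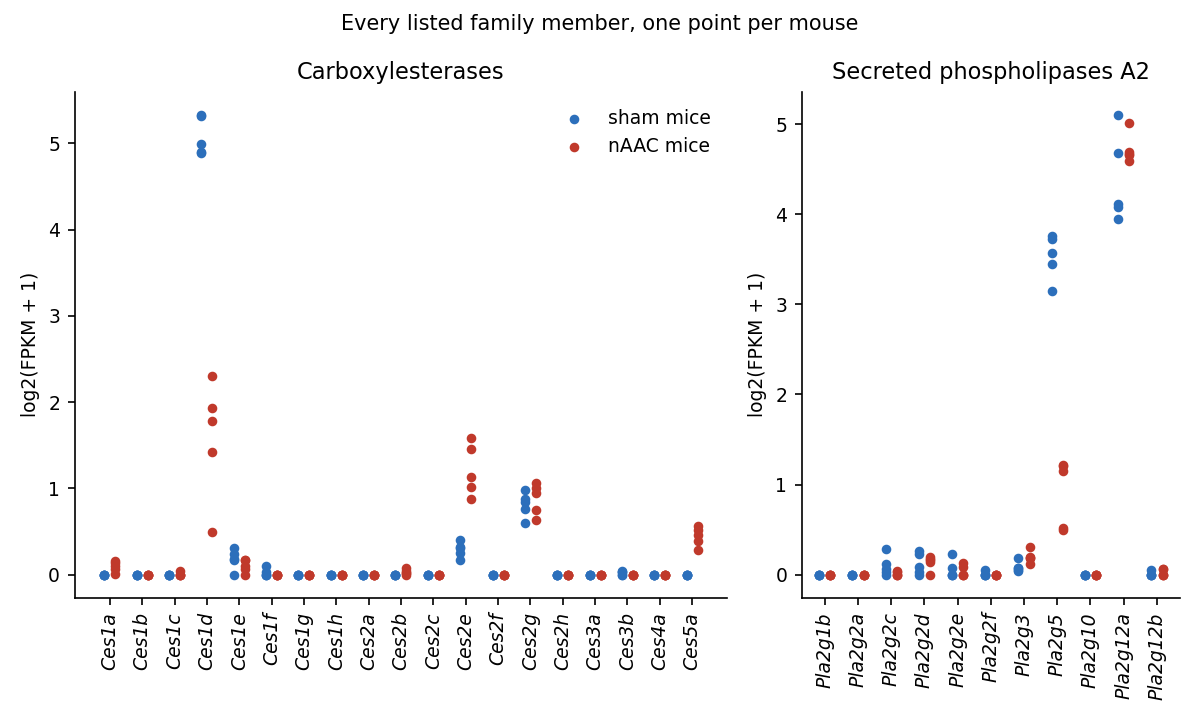
Levels in log2(FPKM + 1) of the 19 carboxylesterases (left) and 11 secreted phospholipases A2 (right), 1 point per mouse, with 5 sham mice in blue and 5 nAAC mice in red. Ces1d is the tallest carboxylesterase in sham mice, the nAAC points of Ces2e and Ces5a lie above the sham points, and Pla2g12a overlaps between groups while Pla2g5 does not.

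Within 100 kb of Ces1d lie 7 annotated genes, all on its strand, and none was abundant enough to be tested, so they cannot show whether the pattern of Ces1d was shared. Ces1e, the nearest relative at a distance of 3380 bases, had at most 0.243 FPKM in sham mice and 0.128 in nAAC mice, and Ces1b, Gm45910 and Gm45727 were listed at 0 throughout. Gm45909, which lies in an intron of Ces1d on the same strand, was at 0.268 to 0.805 FPKM in sham mice and 0.0470 to 0.223 in nAAC mice, and fell (log2 FC -0.49, adjusted p = 0.0100 in the fit without the filter). Reads from unspliced Ces1d and from Gm45909 could not be told apart there. Within 100 kb of Pla2g5 lie 9 genes. Otud3, which encodes a deubiquitinase, was the 1 tested and rose, from 2.23 ± 0.790 to 4.12 ± 0.490 FPKM (SD, n = 5 each), with a log2 FC of 0.70 ± 0.17 SE and a limma adjusted p of 0.00804, though its adjusted p was 0.094 with Xist as a covariate. Ubxn10, 62077 bases away, was below the filter at 0.637 to 1.65 FPKM in sham mice and 0.149 to 0.384 in nAAC mice, and fell in the fit without it (log2 FC -0.71 ± 0.13 SE, adjusted p = 0.00511). The other secreted phospholipase genes of the cluster did not exceed 0.217 FPKM in any mouse, and Pla2g2a, which lies inside Pla2g5 on the other strand, was listed at 0 in all 10.

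Other enzymes that free fatty acids from phospholipids moved in both directions. Of 12 tested genes listed as intracellular phospholipases A2 and related hydrolases, Pla2g7 among them, 4 rose and 2 fell. Their median log2 FC was 0.19 against 0.22 over all genes. Pla2g4a, the cytosolic phospholipase A2 that prefers arachidonic acid, was at 1.08 ± 0.187 FPKM in sham mice and 3.69 ± 1.12 in nAAC mice (SD, n = 5 each), with all nAAC mice higher (log2 FC 1.14 ± 0.17 SE, adjusted p = 0.000223 by limma). Pla2g4e, a relative with N-acyltransferase activity, fell from 1.5 ± 0.242 to 0.510 ± 0.198 FPKM, which is -0.73 ± 0.12 SE in log2 FC (adjusted p = 0.000554). Pnpla6, a lysophospholipase, rose by 0.61 on the log2 scale (adjusted p = 0.00296), and Pnpla8, the membrane-bound calcium-independent phospholipase, fell by 0.35 (adjusted p = 0.022). The calls of Pla2g4a, Pla2g4e and Pnpla6 held under every alternative run, and that of Pnpla8 was lost in several. In sham mice the mean FPKM of Pla2g5 was above those of Pla2g4a and Pla2g4e, and in nAAC mice Pla2g4a was the highest of the 3.

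Of 14 tested genes of intracellular lipolysis 3 rose and none fell by limma's adjusted p, with 1 lower at an unadjusted p below 0.05, and the median log2 FC was 0.11. Ddhd1, a phospholipase that acts on phosphatidic acid, rose from 1.48 ± 0.415 to 3.14 ± 0.350 FPKM with SDs over 5 mice each (log2 FC 0.75 ± 0.13 SE, adjusted p = 0.000758 by limma), and its relative Ddhd2 by 0.38 (adjusted p = 0.0236), a call lost in several alternatives. The main cytosolic triacylglycerol lipase Pnpla2, with a log2 FC of -0.41 (adjusted p = 0.12), and the hormone-sensitive lipase Lipe, at -0.64 (adjusted p = 0.063), did not pass and are named after their values were seen. After median-ratio scaling 2 genes of the list fell. Among 8 tested genes of the lipid droplet coat and droplet formation Cidea rose by 0.97 ± 0.28 (log2 FC and SE, adjusted p = 0.0178) and the droplet-forming genes Fitm2 and Fitm1 fell by 0.46 and 0.83 (adjusted p = 0.017 and 0.0222). The calls of all 3 were lost under at least 2 alternatives.

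Lpl, the lipoprotein lipase gene, fell in the list of vascular lipases and partners, from 883 ± 69.9 FPKM in sham mice to 597 ± 53.7 in nAAC mice (SD, n = 5 each), with no overlap (log2 FC -0.56 ± 0.13 SE, adjusted p = 0.00657 by limma). It was far more abundant than Ces1d in both groups. Of the 8 tested genes of this list 3 rose, led by the lipoprotein receptor Lrp1 (log2 FC 1.69 ± 0.14 SE, adjusted p = 2.63e-06) and followed by Lmf2, a homolog of the lipase maturation factor, at 0.45 (adjusted p = 0.0251), a call lost in several alternatives. Among 14 tested genes that activate fatty acids or put them back into lysophospholipids 3 rose and 3 fell, with a median of 0.03. The long-chain acyl-CoA synthetase Acsl1 fell from 181 ± 14.4 to 125 ± 18.9 FPKM (log2 FC -0.55 ± 0.14 SE, adjusted p = 0.00905), and the lysocardiolipin acyltransferase Lclat1 fell by 0.42 (adjusted p = 0.0115). Neither passed with TPM, and Lclat1 also did not pass with Xist as a covariate. Acsl5 rose by 0.51 (adjusted p = 0.0116) and Agpat1 by 0.48 (adjusted p = 0.0425). Neither passed after median-ratio or upper-quartile scaling or with Xist as a covariate. The call of Agpat1 was also lost without the filter on low values and when any of several single mice was left out.

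Downstream of phospholipase A2, 13 genes of eicosanoid synthesis were tested, and 3 rose and 2 fell, with a median log2 FC of 0.09. Ptgis, the prostacyclin synthase gene, rose from 5.14 ± 0.805 to 19.8 ± 2.35 FPKM (SD, n = 5 each), with all nAAC mice higher (log2 FC 1.76 ± 0.13 SE, adjusted p = 7.06e-07 by limma). Ptgds, the lipocalin-type prostaglandin D synthase gene, was at 29.6 to 245 FPKM in sham mice and 382 to 797 in nAAC mice, again without overlap (log2 FC 2.75 ± 0.50 SE, adjusted p = 0.0011). The soluble epoxide hydrolase gene Ephx2, which removes epoxides made from arachidonic acid, fell from 88.9 ± 13.8 to 53.5 ± 5.36 FPKM (log2 FC -0.71 ± 0.14 SE, adjusted p = 0.00157), and the epoxygenase gene Cyp2j6 fell by 0.35 (adjusted p = 0.0273), a call lost in several alternatives. Of 8 tested receptors for eicosanoids and lysophospholipids 5 rose and none fell, the latter also at an unadjusted p below 0.05, with a median log2 FC of 0.71. The prostaglandin receptor Ptger4 rose by 0.91 ± 0.13 (log2 FC and SE, adjusted p = 0.000192) and the lysophosphatidic acid receptor Lpar1 by 1.10 ± 0.16 (adjusted p = 0.000217). The calls of Ptgis, Ptgds, Ephx2, Ptger4, Lpar1 and Lpl held under every alternative run. These counts are read beside the 27.1% and 4.6% of all genes that rose and fell, a split that was nearly even after median-ratio scaling, with 1540 genes up and 1431 down in place of 3211 and 546.

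**Figure D4:**
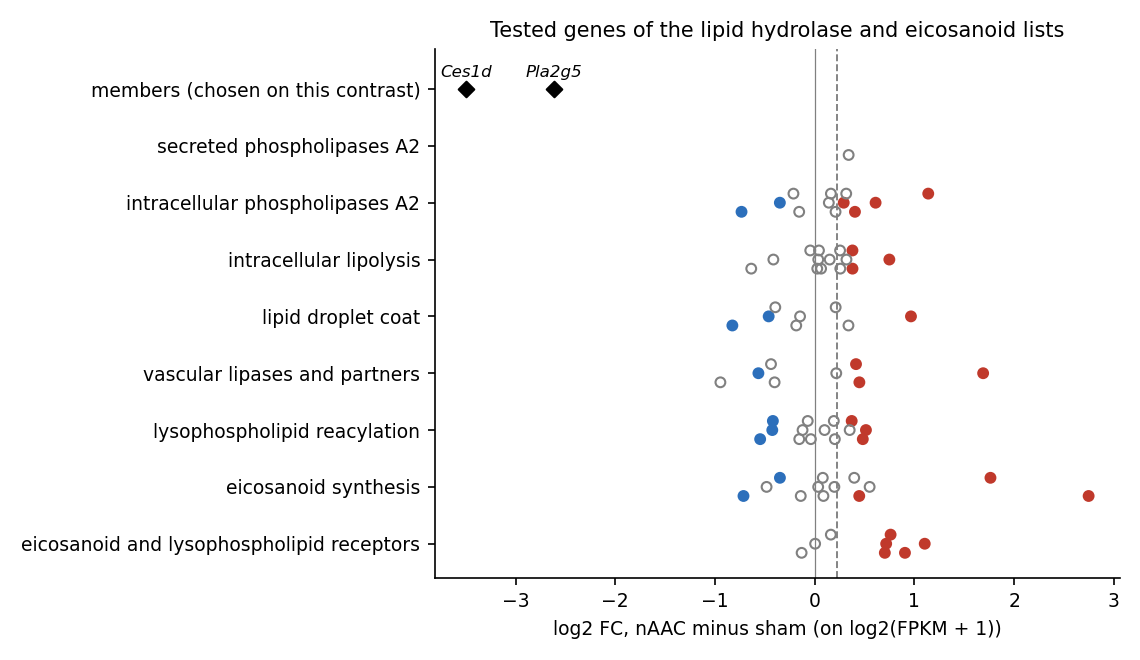
Log2 FC (nAAC minus sham, on log2(FPKM + 1)) of each tested gene of 8 lists, with Ces1d and Pla2g5 as diamonds above them. Red and blue points are genes that rose or fell with a limma adjusted p below 0.05, open points did not pass, and the dashed line is the median of all genes at 0.22. No gene of the lists lies as low as either diamond, but Ces1d and Pla2g5 were chosen for being among the largest decreases. Their place below the lists thus follows largely from that choice.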

How the data were processed

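LV RNA of 5 nAAC and 5 sham mice was measured, grouped by the sample labels. The deposited tables, whose layout is that of StringTie, hold for each gene a coverage signal (mean reads per base), an FPKM (per kilobase and depth) and a TPM (the FPKM rescaled by the authors to a common sum). The labels name the build mm10, and the aligner, the quantification tool and the use of strand are not given in the sources used here. Read counts cannot be recovered, so errors rest on the variation among mice alone. Library depth was estimated from the modal coverage-to-FPKM ratio, shared by 15.0% to 16.5% of expressed genes.

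Rows with the same gene ID (7 to 12 per table) were summed. Values were tested as log2(FPKM + 1) with limma 3.58.1 in R 4.3.3, with its mean-variance trend, for the 11867 genes whose mean FPKM was 1 or higher, with Benjamini-Hochberg adjustment over all of them. Genes called higher (rose) or lower (fell) had an adjusted p below 0.05. The test was checked on simulated data. Alternative settings used TPM, libraries scaled by median ratio or upper quartile, 0.1 as pseudocount, all genes without the filter, Xist as covariate, the replicate number as block, and each mouse left out. The members, the 16 gene lists and the tests were chosen with earlier results of these data known. Genes named are the members, tested genes of their families, up to 2 genes each way per other list by adjusted p, tested genes within 100 kb, and the 5 genes most like each member within groups. Others are marked or given as context with their values. Transcripts and introns were taken from GENCODE M21 (GRCm38), whose coordinates match the members in the tables, and promoters from RefSeq. Tables and figures were made in Python 3.11.15 (matplotlib 3.10.9, pandas 2.3.3).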

Additional observations from a re-analysis of the deposited data

Results flagged for a closer look

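Dixon's ratio, the distance from the highest or lowest value to the next one over the whole span of the 5 values, was computed for the log2 levels of Ces1d, Pla2g5 and the genes named by rule. It exceeded Dixon's critical value (0.71) in 4 of 72 groups, where chance alone gives about 3.6. None of the 4 was in Ces1d or Pla2g5, whose largest ratio was 0.511, for Ces1d in nAAC replicate 1. In nAAC replicate 1 Fv1 was 3.18 FPKM against 5.10 in the next mouse (ratio 0.75) and Agpat1 was 16.3 against 19.9 (0.716). Pla2g12a was highest in nAAC replicate 3, at 31.1 FPKM against 24.8 (0.763), and Pnpla6 in sham replicate 5, at 2.47 against 1.98 (0.774).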

How the results depend on the processing

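Ces1d and Pla2g5 were lower in nAAC mice under every alternative run. Both were chosen for this decrease on the same values, so this describes its size and does not test it. The difference in log2(FPKM + 1) ran from -3.67 to -3.23 and from -2.71 to -2.51 with 1 mouse left out, and was -4.09 and -3.51 with a pseudocount of 0.1. Read counts were not known, so the counting error of low values could not be given. After median-ratio scaling 1540 of all genes rose and 1431 fell, and after upper-quartile scaling 1598 and 1358. Under both scalings, 2 intracellular phospholipases A2 rose, 1 lipolysis gene rose and 2 fell, 4 droplet genes fell, 1 vascular gene rose and 4 fell, and 0 reacylation genes rose, and with median ratio 0 droplet genes rose. With TPM 5687 of all genes passed and 5304 rose, with 1 carboxylesterase up, 1 intracellular phospholipase down, 2 droplet genes up and 0 down, 5 reacylation genes up and 0 down, and 6 eicosanoid synthesis genes up and 1 down. Without the filter 3 carboxylesterases and 0 droplet genes rose and 1 droplet gene fell. With a pseudocount of 0.1, 2 vascular genes fell. With Xist as a covariate 1983 of all genes passed and 1593 rose, 1 intracellular phospholipase fell, 1 lipolysis gene rose and 1 fell, 0 droplet genes rose or fell, 1 vascular gene rose and 3 fell, and 0 reacylation genes rose. The cause of these shifts was not tested.

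Replicate numbers gave no sign of pairing the mice, though so few values cannot settle this. Deviations of same-numbered mice correlated at -0.32 to 0.19, and 1 of 10 mice correlated best with its own number. With the replicate number as a block 3426 genes passed in place of 3757, 1 intracellular phospholipase, 1 lipolysis gene, 2 vascular genes and 1 eicosanoid synthesis gene fell. With 1 mouse left out, 2899 to 4551 genes passed, 2392 to 3930 up and 426 to 621 down. The numbers up and down were then 3 to 5 and 1 to 2 for intracellular phospholipases, 1 to 3 and 0 to 1 for lipolysis, 1 to 2 and 1 to 2 for the droplet list, 1 to 3 and 1 to 2 for vascular lipases, 1 to 4 and 2 to 3 for reacylation, 2 to 5 and 1 to 2 for eicosanoid synthesis, and 0 to 1 up for secreted phospholipases. The genes that changed sign were not called. With median-ratio and upper-quartile scaling, Slc31a2 went to -0.21 and -0.20, Tmem181b-ps to -0.11 and -0.10, 1600014C10Rik to -0.037 and -0.025, and Dnaja3 to -0.084 and -0.070. Slc31a2 was -0.00302 with Xist and ranged from -0.027 to 0.13 with 1 mouse left out (negative without nAAC replicate 4 or 5), and Tmem181b-ps from -2.69e-04 (without sham replicate 3) to 0.15. Of the other values of single genes, 492 kept their direction and call, 63 lost the call and 11 gained it.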
